A study of Bos taurus with 24 samples.

Results

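The nuclear-encoded genes of oxidative phosphorylation were followed as 84 genes among the 27570 genes, 21848 of them protein-coding, that were measured by RNA-seq in cultured bovine fat cell precursors given fatty acids. They were chosen by name among protein-coding genes: NDUFA, NDUFB, NDUFC, NDUFS and NDUFV genes without the NDUFAF assembly factors, SDHA to SDHD, all names that begin with UQCR, COX4I, COX5, COX6, COX7, COX8 or ATP5, and CYC1 and CYCS. By the role of the protein, 38 belong to complex I, 4 to complex II, 9 to complex III, 12 to complex IV and 17 to complex V, and 1 is cytochrome c. The other 3 (NDUFA4L2, COX7A2L and ATP5IF1) carry such names without being regular subunits. NDUFA4 was counted in complex IV, where its protein is found.

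Pre-adipocytes from the subcutaneous fat of Holstein cows were induced in a medium with troglitazone, a PPARG agonist, insulin and acetate, and with dexamethasone and isobutylmethylxanthine only at the start of induction. The PA group received palmitic acid, a saturated fatty acid, and the OA group oleic acid, which has a single double bond. The MIX group received 60% PA with 40% OA. The total dose was 300 µM in these groups, and CON had the basal medium alone, so that the troglitazone medium was common to all 4 groups. At day 4 the cells came from cows 4, 5 and 6 and had the fatty acids during induction. At day 7 they came from cows 1, 2 and 3 and had the fatty acids after the first phase of induction, so the day, the treatment schedule and the animals cannot be told apart. Each group had 1 library per cow (n = 3 animals per group, 24 libraries), with 13509548 to 17071654 counts per library at day 4 and 14118798 to 24008811 recovered reads at day 7.

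Oxidative phosphorylation takes place in the inner mitochondrial membrane. Complexes I and II pass electrons from NADH and succinate to ubiquinone, complex III passes them through cytochrome c to complex IV, which reduces oxygen, and complex V, the ATP synthase, makes ATP from the proton gradient. White adipocytes draw on it for ATP, and mitochondrial content increases during adipogenesis. The mitochondrially encoded subunits of these complexes were not analysed here.

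The labels call the cells adipocytes. Of 15 adipocyte markers found in the tables, 9 averaged at least 1 FPKM (fragments per kilobase, scaled to library size) at day 4 and 5 did at day 7. ADIPOQ was at most 0.116 FPKM in any library of day 4 and was listed at 0 in all of day 7, and FABP4 lay at 11.1 to 56.7 FPKM at day 4 and at 0 to 1.43 FPKM at day 7. The adipocyte list summed to 69.8 to 181 FPKM per library at day 4 and 55.3 to 124 FPKM at day 7. Other genes of the list thus held most of its level at day 7. Its median per library was 1.10 to 2.65 FPKM at day 4 and 0.174 to 0.602 FPKM at day 7. Of 16 preadipocyte and fibroblast markers, 12 averaged at least 1 FPKM on each day, and the list's median per library was 296 to 1331 FPKM at day 4 and 439 to 1300 FPKM at day 7. The smooth muscle and myofibroblast list, some of whose genes fibroblasts also express, had 13 of 14 markers averaging at least 1 FPKM at day 4 and 12 of 14 at day 7, with library medians of 27.0 to 312 FPKM and 206 to 569 FPKM. Of 8 endothelial markers 1 reached that mean at day 4 and 0 at day 7, and of 10 macrophage and leukocyte markers 3 did on each day, with summed levels of 12.2 to 17.3 FPKM and 4.94 to 27.3 FPKM. PECAM1 of endothelial cells and PTPRC of leukocytes stayed at or under 0.0774 FPKM in every library. One library stood apart. In 10 genes that were at least 10-fold lower in the other 3 libraries of cow 2 than in cows 1 and 3, the OA library of cow 2 was the highest of its cow in 9, with a median ratio of 3.07 to them; for the other libraries with such genes this ratio was 0.475 to 1.61. The main results of OA at day 7 are given with and without that library. The PA library of cow 5 and the CON library of cow 1 also had an unlike split of the NDUFA12 copies, given with that gene. By the measure above CON of cow 1 was the highest of its cow in 1 of 4 genes, with a ratio of 1.06, and PA of cow 5 had no such genes. Whether any of these libraries holds RNA of another animal was not tested.

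The 84 genes were expressed well above a typical gene. Their median of mean levels was 49.3 FPKM at day 4 and 50.5 FPKM at day 7, against 11.5 and 9.58 FPKM over all expressed protein-coding genes (11890 and 11813). Mean levels reached at least 10 FPKM for 79 of the 84 at day 4 and for 80 at day 7. In the top 10% of expressed genes, which began at 57.6 FPKM at day 4 and 56.3 FPKM at day 7, stood 32 and 37 of them. The order of the genes was much alike on both days. Across the 84 genes the mean levels of the days had a Spearman correlation of 0.917, a description over genes that are not independent, and 79 of the 83 detected genes lay within 2-fold. The tables were normalised separately, so this comparison of levels carries no test.

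**Figure D1:**
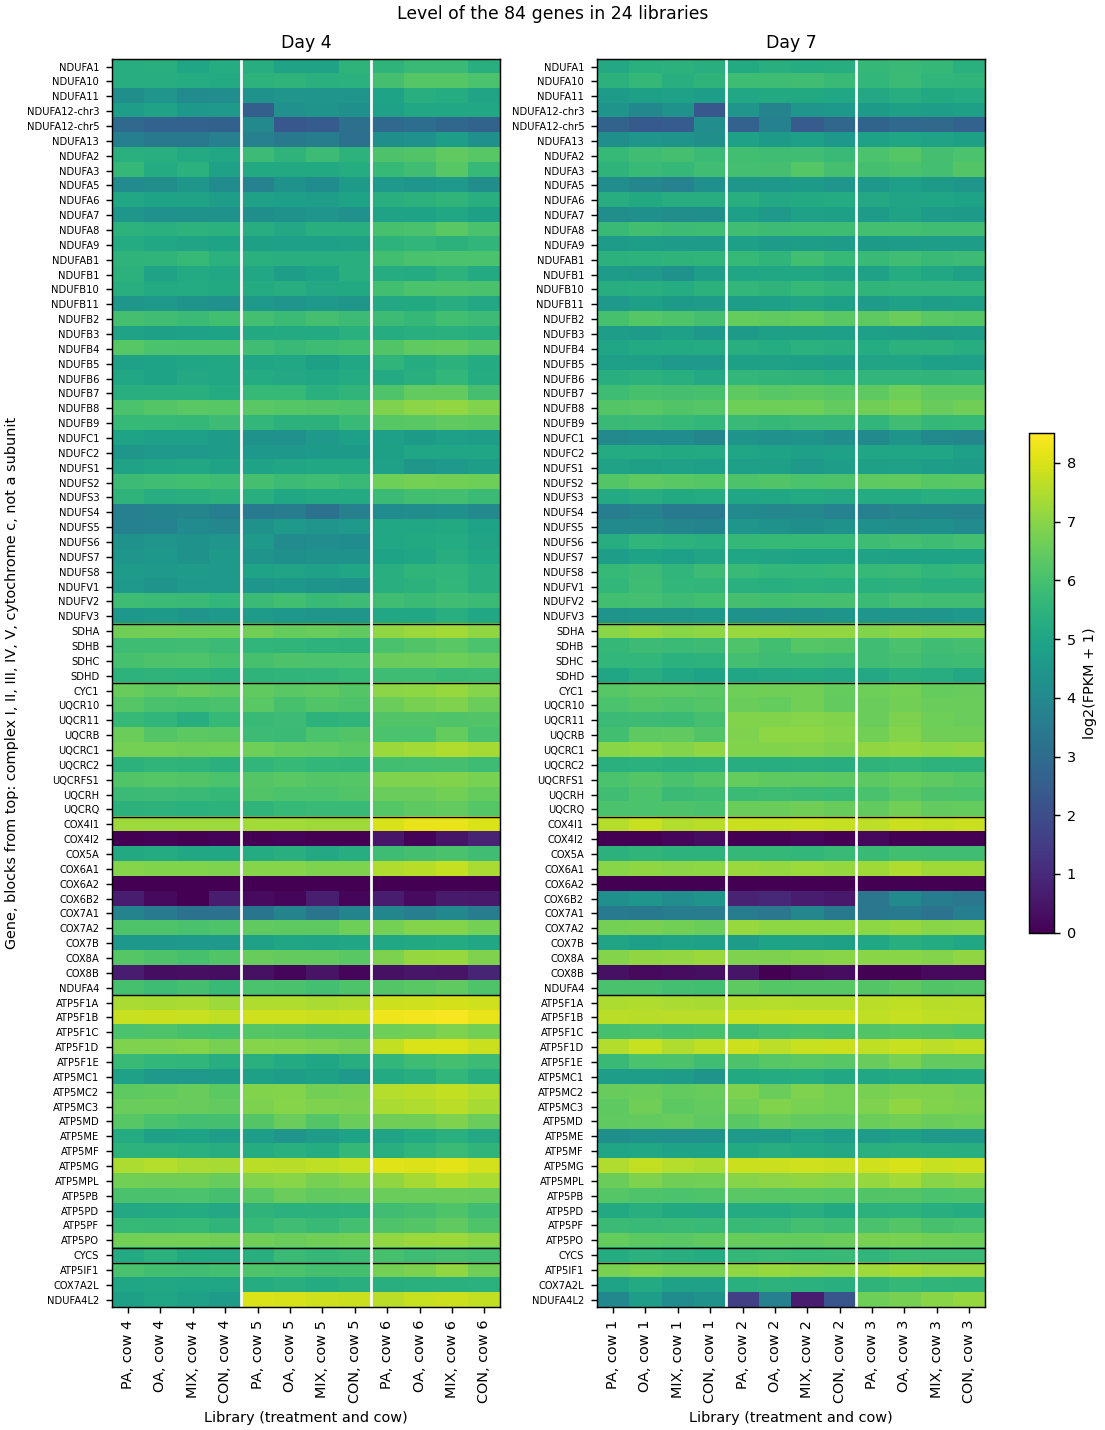
Level of each of the 84 genes, as log2(FPKM + 1), in the 12 libraries of day 4 (left) and of day 7 (right), ordered by cow and within a cow as PA, OA, MIX and CON. ATP5F1B, ATP5MG and COX4I1 are among the brightest rows on both days, cow 6 is brighter than cows 4 and 5 in most rows of day 4, COX6A2, COX4I2 and COX8B are dark throughout, and NDUFA4L2 and COX6B2 change with the cow.

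Complex I genes were the lowest of the complexes as a group, with a median of 34.5 FPKM at day 4 and 35.5 FPKM at day 7. Complex IV was close, at 36.6 and 40.5 FPKM, medians that include genes averaging under 1 FPKM (8 and 9 of its 12 genes reached that mean). The levels of complex I genes ran from 6.63 FPKM for the chromosome 5 copy of NDUFA12 and 13.2 FPKM for NDUFS4, an accessory subunit, to 91.2 FPKM for NDUFB8 at day 4. The core subunits NDUFS1, which carries iron-sulfur clusters, and NDUFV1, which binds NADH, lay at 28.8 ± 3.74 and 28.7 ± 10.9 FPKM at day 4 (SD over 12 libraries). At day 7 they lay at 26.6 ± 1.61 and 43.6 ± 5.5 FPKM. NDUFAB1, the mitochondrial acyl carrier protein that is also a complex I subunit, was at 50.3 ± 11.5 FPKM at day 4 and 50.4 ± 5.54 FPKM at day 7. NDUFS6 was the only complex I gene with means more than 2-fold apart, at 50.8 FPKM at day 7 and 23.97 FPKM at day 4.

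All 4 genes of complex II, which is also the succinate dehydrogenase of the citric acid cycle, were expressed. The flavoprotein SDHA led them at 112 ± 25.6 FPKM at day 4 and 131 ± 10.1 FPKM at day 7. The iron-sulfur subunit SDHB had 57.6 ± 11.9 and 61.5 ± 7.92 FPKM at days 4 and 7. The membrane anchors SDHC and SDHD had 75.7 ± 13.1 and 48.8 ± 5.54 FPKM at day 4, and 53.8 ± 6.62 and 34.4 ± 3.07 FPKM at day 7. In complex III the core protein UQCRC1 was highest, with 118 ± 33.9 FPKM at day 4 and 127 ± 9.77 FPKM at day 7. CYC1 (cytochrome c1) had 100.3 ± 25.1 and 91.0 ± 9.03 FPKM, and UQCRFS1, the Rieske protein, 87.2 ± 20.4 and 79.0 ± 7.67 FPKM at the same days. Soluble cytochrome c, CYCS, was lower than CYC1 on both days, at 48.8 ± 11.1 and 47.4 ± 6.38 FPKM.

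Complex V held the most abundant transcripts. ATP5F1B and ATP5F1A, which form the catalytic hexamer, averaged 255 ± 46.9 and 193 ± 33.9 FPKM at day 4, and 210 ± 14.0 and 184 ± 10.3 FPKM at day 7. ATP5MG, a membrane subunit, had 214 ± 41.4 FPKM at day 4 and 216 ± 24.2 FPKM at day 7. ATP5F1D of the central stalk had 157 ± 63.0 and 209 ± 16.4 FPKM. The c-ring protein is made from 3 genes with different presequences. ATP5MC2 and ATP5MC3 shared most of their summed FPKM, with 40.8% to 47.6% and 42.7% to 47.3% over the libraries of day 4 and 38.0% to 46.3% and 41.2% to 47.3% at day 7. ATP5MC1 gave 9.15% to 13.7% at day 4 and 10.1% to 14.7% at day 7.

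Complex IV has subunits with tissue forms, and in the COX4I, COX6A, COX7A and COX8 pairs the forms found in most tissues prevailed in these cultures. COX4I1 averaged 195 ± 62.1 FPKM at day 4 and 210.4 ± 16.2 FPKM at day 7, and COX6A1 143 ± 36.4 and 146 ± 14.8 FPKM. COX8A averaged 95.04 ± 27.7 and 127 ± 10.5 FPKM, and NDUFA4 67.6 ± 9.01 and 72.4 ± 7.58 FPKM. COX4I2, a form linked to low oxygen, gave at most 0.304% of the COX4I signal in any library, and COX8B at most 0.809% of the COX8 signal. The heart and muscle form COX6A2 had 0 reads in all 24 libraries, which in the shallowest library of each day allows 0.222 CPM (day 4) or 0.212 CPM (day 7), taking 3 counts as the limit and counting error only. COX7A1, the heart and muscle form of COX7A that is also known from brown fat, had the largest share of a tissue form among these pairs. It gave 8.68% to 15.7% of the summed COX7A1 and COX7A2 FPKM at day 4 and 6.31% to 10.3% at day 7, with 11.2 ± 2.30 and 10.6 ± 1.47 FPKM, while COX7A2 averaged 89.7 ± 19.7 and 123.4 ± 16.8 FPKM. The COX6B forms could not be compared, since COX6B1 was not analysed under that name. COX6B2 averaged 0.345 FPKM at day 4 and 10.4 FPKM at day 7.

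Levels of these genes varied more between animals than between treatments. Over the 80 genes tested at day 4, the median share of the sum of squares of log2(FPKM + 1) was 91.8% for cow, 2.17% for treatment and 6.36% for the residual. Over the 81 genes tested at day 7 it was 74.5% for cow, 10.0% for treatment and 12.8% for the residual. The medians over all genes tested were 87.3%, 3.15% and 8.33% at day 4 and 78.0%, 6.55% and 12.7% at day 7. Cow took the larger share in 77 of 80 genes at day 4 and in 74 of 81 at day 7. Random spread adds to each share, and the treatment share was not tested against it.

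Cow 6 had the highest mean of its day in 77 of the 83 detected genes, while it was highest in 43.4% of all genes. The summed FPKM of the 84 genes, averaged over the 4 libraries of a cow, were 6766 in cow 6, 4714 in cow 5 and 4277 in cow 4. At day 7 the animals were closer, with 5759 in cow 3, 5480 in cow 2 and 4807 in cow 1. COX4I1 shows the pattern at day 4, with 253, 297, 299 and 261 FPKM in the PA, OA, MIX and CON libraries of cow 6. Its other 8 libraries of day 4 lay between 150 and 159 FPKM, and no library of cow 6 overlapped them.

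A few genes were split by animal or by library rather than by treatment. NDUFA4L2, a paralog of NDUFA4 that is induced under low oxygen and is reported to lower complex I activity, lay at 25.1 to 32.0 FPKM in cow 4, against 197 to 258 FPKM in cows 5 and 6. At day 7 it had 97.3, 108, 125 and 142 FPKM in PA, OA, MIX and CON of cow 3, and 14.5, 26.0, 16.7 and 19.5 FPKM in those of cow 1. In cow 2 it had 2.02, 11.9, 0.60 and 3.88 FPKM, the highest being the OA library that stood apart. COX6B2, known as the testis form of COX6B, was at most 0.63 FPKM in every library of day 4. At day 7 it had 17.0 to 21.3 FPKM in cow 1, 0.49 to 0.96 FPKM in cow 2 and 9.40 to 15.4 FPKM in cow 3.

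NDUFA12, an accessory subunit of complex I, is listed as 2 genes. The copy on chromosome 5 spans introns (length 950 bases over a span of 27214 bases), while the copy on chromosome 3 has a length of 546 bases equal to its span, so it is unspliced as annotated. The genome build is not given in the sources used here. In 20 libraries 65.9% to 77.6% of the reads of the pair went to the chromosome 3 copy. The share was 16.0% in PA of cow 5, 57.4% in CON of cow 5, 11.9% in CON of cow 1 and 37.7% in OA of cow 2. The sum of both copies was 13.1 to 24.4 CPM at day 4 and 12.01 to 20.2 CPM at day 7. The share of the copies differed between libraries of the same cow, so values of either copy alone are uncertain, and their sequences were not compared. With the copies summed and cow as a block, the OA minus PA difference at day 4 was -0.01 ± 0.12 (log2, SE).

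**Figure D2:**
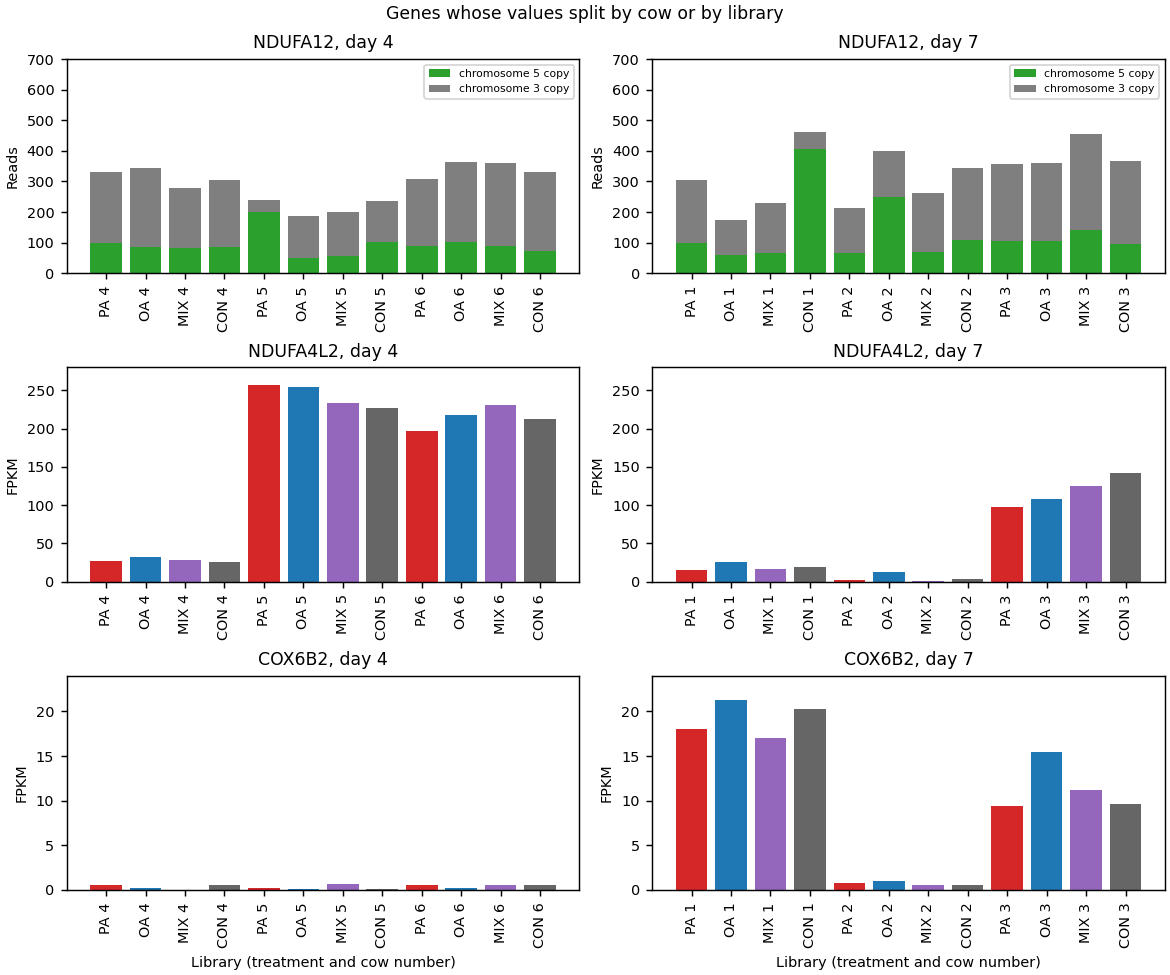
Reads of the chromosome 5 and chromosome 3 copies of NDUFA12 (top), and FPKM of NDUFA4L2 (middle) and COX6B2 (bottom), in each library of day 4 (left) and day 7 (right), in the order PA, OA, MIX and CON within each cow. The chromosome 5 copy holds most reads in PA of cow 5, CON of cow 1 and OA of cow 2, while NDUFA4L2 and COX6B2 follow the cow.

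The question of the treatment comparisons was whether added PA, OA or MIX changed the genes of the respiratory chain. No member passed an adjusted p of 0.05 (Benjamini-Hochberg over all genes tested) in any of the 12 comparisons, with edgeR's quasi-likelihood test at day 4 or limma at day 7, and 0 did with DESeq2 at day 4. The shares of all genes called were 0% in each of the 12 comparisons. Without cow as a block, unadjusted p-values under 0.05 were also found for 0 members, against 0.11% to 0.690% of all genes. Since every cow gave a library to each treatment, the fit with cow as a block was made as well, and it also called 0 members. It called 0.0736% of all genes as higher in OA than CON at day 4. For OA against PA at day 4 it called 0.125% as higher and 0.0957% as lower, and in the remaining comparisons 0%. In this fit, unadjusted p-values under 0.05 occurred among members in each of the 12 comparisons, and in 2.97% to 11.5% of all genes. Counts of members beside the share of all genes are given below for the comparisons of OA at day 7. In the authors' deposited table for day 4 the smallest unadjusted p of a member was 0.0831, for the chromosome 5 copy of NDUFA12 in MIX against PA.

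The intervals bound how large a difference could have been. With the block, the 95% interval of the difference from CON lay within 1.5-fold in either direction for 77 (PA), 79 (OA) and 78 (MIX) of the 80 genes tested at day 4. At day 7 this held for 78, 77 and 78 of 81. The genes outside it in at least 1 of these comparisons were the NDUFA12 copies, NDUFA4L2, COX6B2, NDUFA3 and COX7A1. For these RNA samples from whole cultures, fewer cells of a type and less RNA per cell cannot be told apart.

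**Figure D3:**
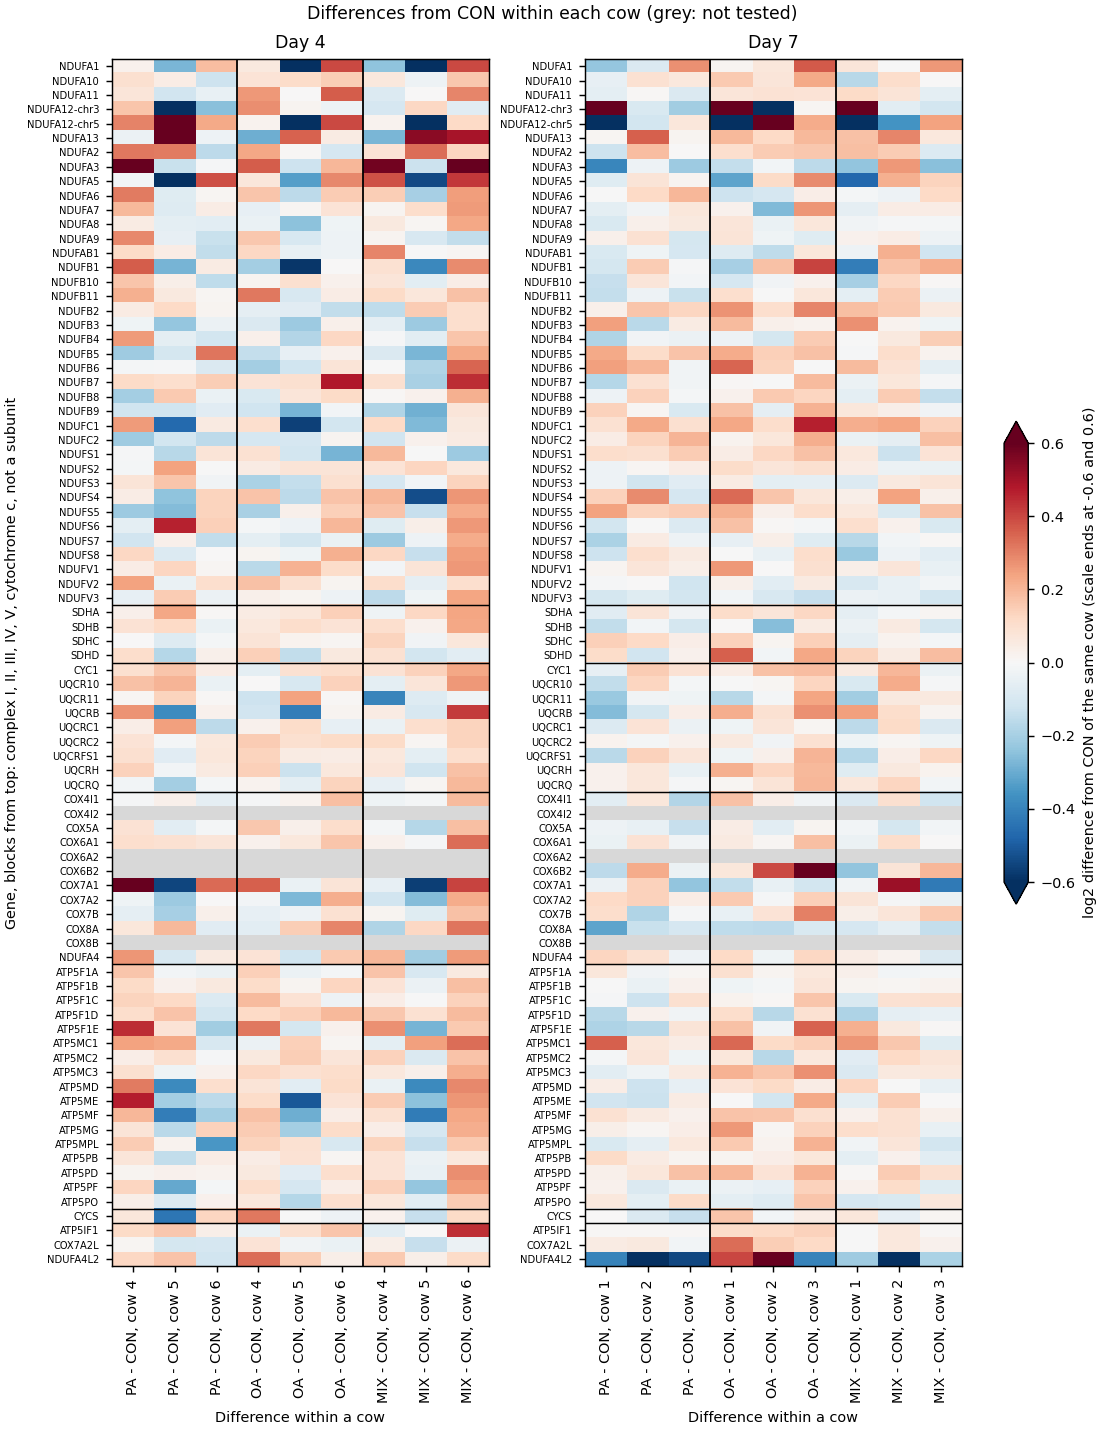
Log2 difference from CON of the same cow for each gene (rows) in PA, OA and MIX at day 4 (left) and day 7 (right), with the colour scale ending at -0.6 and 0.6 and genes not tested in grey. At day 4 most rows of MIX are red in cow 6 where many are blue in cow 5, and at day 7 most rows of OA are red in cows 1 and 3.

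At day 4 the members' differences were small and varied by cow. PA exceeded CON in 47 of 80 genes (47.9% of all genes) with a median log2 difference of 0.022, against -0.0051 over all genes. Within cows 4, 5 and 6 the members' median was 0.091, -0.033 and -0.00034. In all 3 cows 12 members were higher and 5 lower, where 11.1% and 11.7% of all genes were. The median is negative without cow 4, at -0.027 with the block kept.

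OA at day 4 was above CON in 61 of 80 genes (50.1% of all genes), with a median of 0.036. The medians within cows were 0.061, -0.029 and 0.079. Counting members alike in all 3 cows, 19 members were higher and 4 lower (13.7% and 13.2% of all genes). The members with the smallest p in the block fit were ATP5F1D of the ATP synthase stalk and the complex I accessory subunits NDUFB7 and NDUFA11. ATP5F1D had 116, 120 and 260.5 FPKM in OA of cows 4, 5 and 6, against 106, 108 and 227 FPKM in CON. Each OA library was above the CON library of its cow, but cow 6 lay far above the others and the groups overlapped. The difference was 0.15 ± 0.07 (log2, SE; adjusted p = 0.956). NDUFB7 differed by 0.23 ± 0.11 and NDUFA11 by 0.22 ± 0.11, both higher in OA in 3 of 3 cows. On the lower side NDUFB1 had 29.0, 26.0 and 36.1 FPKM in OA, against 33.3, 38.9 and 35.9 FPKM in CON, a difference of -0.26 ± 0.15 that was negative in 2 of 3 cows. In the same comparison 1 gene each of the adipocyte and smooth muscle marker lists passed the adjusted threshold with the block. The fatty acid transporter CD36 rose by 0.77 ± 0.14 (adjusted p = 0.0166, edgeR) and the smooth muscle actin ACTG2 by 0.59 ± 0.09 (adjusted p = 0.00715, edgeR), and their part in the members' differences was not tested.

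MIX at day 4 exceeded CON in 64 of 80 genes (52.8% of all genes) with a median of 0.077, against 0.0080 over all genes. This rested on 1 animal. The median was 0.053 in cow 4, -0.054 in cow 5 and 0.193 in cow 6, and without cow 6 it was -0.021. In all 3 cows 12 members were higher and 1 lower, against 12% and 10.9% of all genes. CYC1 had 91.3, 82.3 and 146 FPKM in MIX of cows 4, 5 and 6, against 85.3, 74.4 and 124 FPKM in CON. It was higher in MIX in every cow while the groups overlapped, with a difference of 0.15 ± 0.07 (adjusted p = 0.994 with the block). NDUFA3, an accessory subunit of complex I, had the smallest p and differed by 0.38 ± 0.15, with 42.0, 34.6 and 78.1 FPKM in MIX and 27.9, 37.8 and 50.9 FPKM in CON. It was higher in cows 4 and 6 and lower in cow 5. The cytosolic ribosomal protein genes had the same order of cows, with within-cow medians of 0.036, -0.066 and 0.235 over 78 genes, and their part in the result was not tested.

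Among the fatty acids at day 4, OA exceeded PA in 46 of 80 genes (52.8% of all genes; median 0.014), MIX exceeded PA in 66 (56.0%; median 0.053) and MIX exceeded OA in 53 (52.6%; median 0.034). These medians turn negative without cow 6. Counting members alike in all 3 cows, 14 members were higher and 4 lower in OA than PA (13.2% and 13.3% of all genes). For MIX against PA the counts were 10 and 4 (10.2% and 10.4%), and for MIX against OA 13 and 3 (14.1% and 13.4%). Besides the copies of NDUFA12, the smallest p for OA against PA were those of NDUFA11, at 0.25 ± 0.11 (adjusted p = 0.627 with the block), and NDUFB1, at -0.32 ± 0.15. UQCRB, the ubiquinone-binding subunit of complex III, had 82.0, 67.3 and 89.1 FPKM in MIX of cows 4, 5 and 6, against 73.3, 54.1 and 67.1 FPKM in OA. It was higher in MIX in each cow, by 0.30 ± 0.11, without passing the adjusted threshold (adjusted p = 1.00).

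At day 7 OA stood above CON in 68 of 81 genes, while 52.1% of all genes were above 0. The median difference of the members was 0.081 on the log2 scale, against 0.0057 over all genes. It was positive in each animal, at 0.075 in cow 1, 0.017 in cow 2 and 0.127 in cow 3. In all 3 cows 36 members were higher and 4 lower, where 17.0% and 14.8% of all genes were. With cow as a block, 19 members reached an unadjusted p of 0.05 as higher and 1 as lower, against 5.53% and 3.75% of all genes, but the smallest adjusted p was 0.424. These are counts for a list chosen with earlier results known, and no test of the list was made.

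All complexes had positive medians in OA against CON at day 7. OA was higher for 29 of 38 genes of complex I (median 0.081), 3 of 4 of complex II (0.101), 9 of 9 of complex III (0.068), 7 of 9 tested genes of complex IV (0.073) and 16 of 17 of complex V (0.066). For CYCS the difference was 0.065, and the 3 named genes that are no regular subunits were all higher (median 0.200).

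The smallest p belonged to ATP5MC3, one of the c-ring genes. It had 100.0, 117 and 135 FPKM in OA of cows 1, 2 and 3, against 86.6, 104 and 111 FPKM in CON. OA exceeded CON within every cow, although the OA library of cow 1 lay under the CON libraries of cows 2 and 3. The groups averaged 117 ± 17.3 FPKM in OA and 101 ± 12.7 FPKM in CON (SD, n = 3), and the difference was 0.22 ± 0.05 with the block (log2, SE; limma adjusted p = 0.424) and 0.22 ± 0.18 without it. Without the OA library of cow 2 it was 0.25 ± 0.05 with the block (adjusted p = 0.288). ATP5MC1 differed by 0.20 ± 0.07, while ATP5MC2, which encodes the same mature protein, differed by -0.01 ± 0.07, and without that library the differences were 0.24 ± 0.08 and 0.09 ± 0.05.

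COX7A2L, which joins complexes III and IV into supercomplexes in mouse and human, had 35.8, 44.2 and 49.3 FPKM in OA of cows 1, 2 and 3, against 28.2, 39.7 and 45.4 FPKM in CON. UQCRH, the hinge protein of complex III, had 67.0, 57.0 and 78.0 FPKM in OA, against 57.7, 52.1 and 68.0 FPKM in CON. Both were higher in OA in each cow, and in both genes the groups overlapped. The differences were 0.20 ± 0.06 and 0.18 ± 0.05 with the block, each with a limma adjusted p of 0.426, and 0.24 ± 0.06 and 0.22 ± 0.05 without the OA library of cow 2, each with an adjusted p of 0.288.

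Among the abundant and core genes, some lay under and others over the members' median of 0.081. ATP5F1B differed by 0.01 ± 0.04 (95% interval -0.08 to 0.10), ATP5F1A by 0.06 ± 0.04, UQCRC1 by 0.02 ± 0.05 and COX4I1 by 0.07 ± 0.06. SDHA differed by 0.10 ± 0.04, NDUFS1 by 0.11 ± 0.06 and NDUFV1 by 0.12 ± 0.06, each higher in OA in 3 of 3 cows. COX7A1 was lower in OA in 3 of 3 cows, with a wide interval (-0.10, 95% interval -0.43 to 0.23). With the OA library of cow 2 left out, COX7A1 differed by -0.017, COX4I1 by 0.12 ± 0.07, NDUFS1 by 0.084 ± 0.064 and NDUFV1 by 0.19 ± 0.05.

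**Figure D4:**
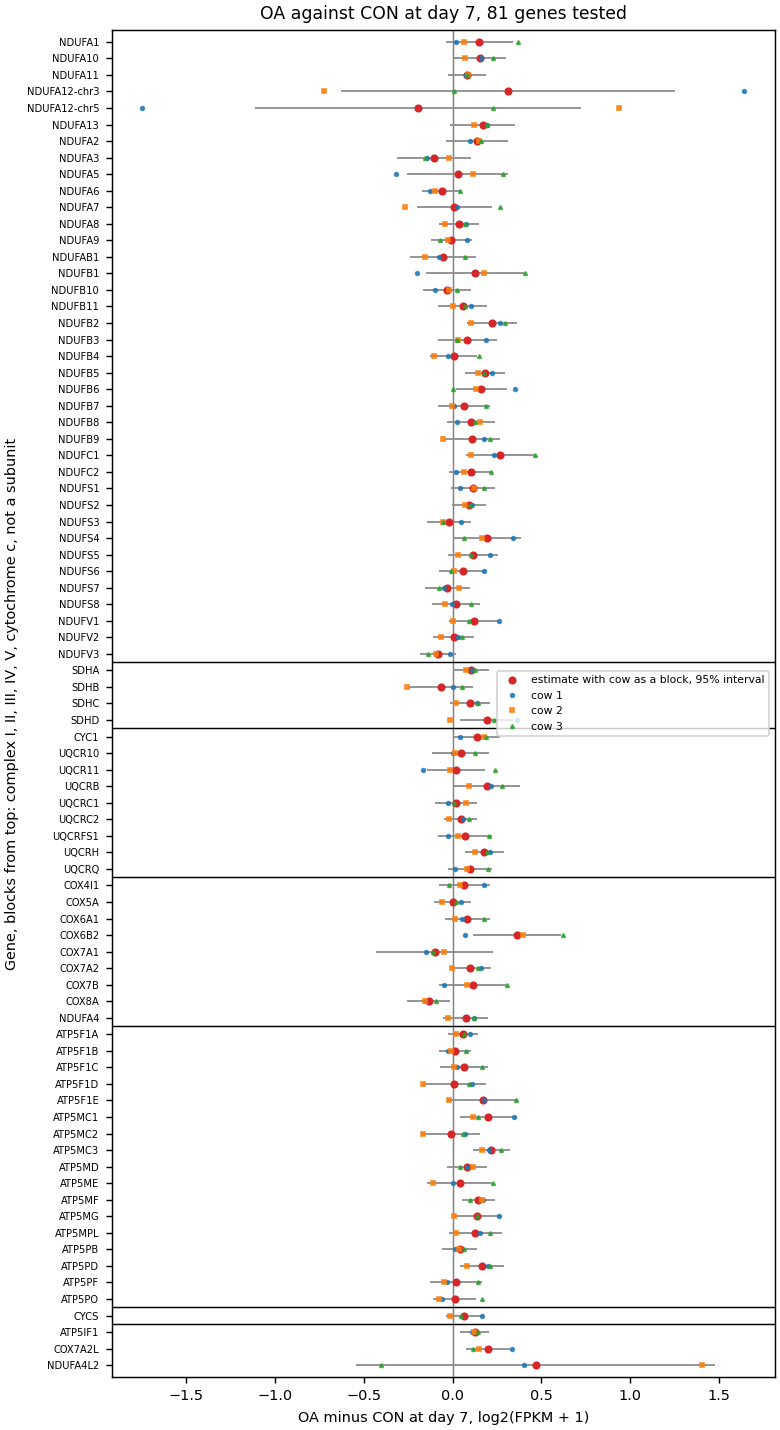
OA minus CON at day 7 for the 81 genes tested, as log2(FPKM + 1): red points with lines give the estimate with cow as a block and its 95% interval, small points the 3 cows. Most estimates lie right of 0, with ATP5MC3 at 0.22 and COX8A at -0.13, and the NDUFA12 copies and NDUFA4L2 have the widest intervals.

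COX8A ran the other way. It had 120, 115 and 125 FPKM in PA of cows 1, 2 and 3, 134, 113 and 125 FPKM in OA, and 139, 121 and 121 FPKM in MIX, against 149, 126 and 134 FPKM in CON. Within each cow CON was the highest library of the 4. The differences were -0.18 ± 0.05 for PA, -0.13 ± 0.05 for OA and -0.10 ± 0.05 for MIX with the block, and none passed the adjusted threshold (0.998, 0.513 and 1.00). The comparisons share the CON libraries and are not separate evidence. The difference of OA was -0.11 ± 0.06 without the library that stood apart. At day 4 the differences of PA, OA and MIX were 0.07, 0.13 and 0.10, each positive in 2 of 3 cows.

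The OA values at day 7 varied with the animals included. With the block kept, leaving out cow 3 gave a median of 0.050, leaving out cow 1 gave 0.079 and leaving out cow 2 gave 0.103. Unadjusted p-values under 0.05 as higher were then found for 6, 11 and 21 members, against 4.40%, 3.22% and 5.43% of all genes. Without the OA library of cow 2 alone, the median was 0.118, 72 of 81 members were higher, and 28 reached that level against 6.92% of all genes. The medians of complexes I to V were then 0.102, 0.140, 0.117, 0.120 and 0.118. Without the CON library of cow 1, which enters every difference from CON, the members' median was 0.092 with 68 of 81 higher, and 14 reached that level against 3.65% of all genes. Adjusted calls were 0 in each of these fits. NDUFA4L2 turned its sign with the OA library of cow 2, at 0.47 ± 0.45 with it and -0.18 ± 0.32 without it. COX6B2 differed by 0.36 with that OA library and 0.39 without it.

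Other groups of short or abundant transcripts also had positive medians, with 0 of the ribosomal protein genes past the adjusted threshold. Genes no longer than the members' median length of 1067 bases had a median of 0.049 in OA against CON at day 7, with 1216 of 2026 higher. The cytosolic ribosomal protein genes had a median of 0.150, with 73 of 77 higher and 63 higher in all 3 cows. Without the OA library of cow 2 these medians were 0.062 and 0.200. The part of transcript length and of ribosomal protein RNA in the members' result was not tested.

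OA also stood above PA at day 7, in 68 of 81 genes (53.9% of all genes) with a median of 0.072 against 0.012 over all genes. The medians within cows 1, 2 and 3 were 0.095, -0.0089 and 0.133. Over the fits that left out a cow or a library with the block kept, the median lay between 0.033 (OA of cow 3 left out) and 0.102 (cow 2 left out). Counting members alike in all 3 cows, 27 members were higher and 2 lower, against 16.5% and 12.8% of all genes, and 15 and 1 had unadjusted p under 0.05 with the block, against 7.67% and 3.80%. The first count dropped to 5 when cow 3 was left out and to 7 for cow 1, and was 26 for cow 2. Leaving out only the OA library of cow 2 gave 28. In this order, 5.80%, 4.58%, 8.66% and 8.99% of all genes reached it. The smallest adjusted p was 0.272. Other groups of genes also stood higher in OA than PA. Genes no longer than the members' median length had a median of 0.055, with 1254 of 2026 higher. The cytosolic ribosomal protein genes had a median of 0.137, with 74 of 77 higher. Without the OA library of cow 2 these medians were 0.061 and 0.188. The part of these groups in the members' result was not tested. UQCRB had 83.5, 132 and 120 FPKM in OA of cows 1, 2 and 3, against 59.7, 115 and 102 FPKM in PA. It was higher in OA in each cow, most in cow 1, with a difference of 0.31 ± 0.08 (adjusted p = 0.318 with the block). ATP5MC3 differed by 0.23 ± 0.05 and UQCRH by 0.16 ± 0.05. Without the OA library of cow 2 the differences of UQCRB, ATP5MC3 and UQCRH were 0.35 ± 0.09, 0.26 ± 0.05 and 0.21 ± 0.05. On the lower side NDUFA6, an accessory subunit of complex I, had 35.1, 34.0 and 30.3 FPKM in OA, against 38.3, 39.8 and 34.0 FPKM in PA. It was lower in OA in every cow, by -0.17 ± 0.05 (adjusted p = 0.321), and -0.16 ± 0.06 without that library. PA and OA differ in chain length and in the double bond of OA, and were compared at the same total dose and times in 2 tests per gene, 1 for each day.

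PA against CON at day 7 showed no common direction. PA was above CON in 43 of 81 genes (46.7% of all genes), with a median of 0.0071 and within-cow medians of -0.031, 0.051 and -0.0062. In all 3 cows 16 members were higher and 12 lower (11.5% and 14.9% of all genes). The smallest p on the higher side belonged to NDUFB5, an accessory subunit of complex I. It had 26.6, 27.6 and 30.3 FPKM in PA of cows 1, 2 and 3, against 22.6, 25.5 and 26.7 FPKM in CON. It was higher in PA in each cow, by 0.17 ± 0.05 (adjusted p = 0.998), and only the PA library of cow 1 lay within the CON range. NDUFS5 and NDUFC2 differed by 0.18 ± 0.06 and 0.13 ± 0.05, and NDUFA3 by -0.21 ± 0.09.

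MIX against CON at day 7 was close to 0, with 52 of 81 genes above it (49.0% of all genes) and a median of 0.016. The medians within cows were -0.019, 0.059 and -0.0066. Counting members alike in all 3 cows, 11 members were higher and 8 lower (12% and 12.7% of all genes). NDUFC1, a small complex I subunit, differed by 0.20 ± 0.09 and NDUFA13 by 0.18 ± 0.08, both higher in 3 of 3 cows. NDUFA4L2 differed by -0.67 ± 0.45, lower in 3 of 3 cows with a 95% interval of -1.68 to 0.34. MIX exceeded PA in 46 genes (53.2% of all genes; median 0.0093), with 12 higher and 12 lower in all 3 cows (14.6% and 12.5% of all genes).

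Compared with OA, MIX was lower at day 7 in 63 of 81 genes and higher in 18 (48.6% of all genes were above 0), with a median of -0.062. The medians within cows 1, 2 and 3 were -0.087, 0.036 and -0.130, and over the fits that left out a cow or a library the median lay between -0.106, without cow 2, and -0.027, without cow 3. In all 3 cows 1 member was higher and 19 lower, where 13.6% and 15.7% of all genes were. With the block, 0 members reached an unadjusted p of 0.05 as higher and 12 as lower, against 3.77% and 6.64% of all genes, with a smallest adjusted p of 0.299. The count of 12 became 5 when cow 3 was left out, 4 for cow 1 and 21 for cow 2, and leaving out only the OA library of cow 2 gave 22. The shares of all genes were 5.80%, 4.15%, 6.32% and 7.41% in the same order. ATP5MC3 had 81.4, 108 and 116 FPKM in MIX, below OA in each cow by -0.21 ± 0.05, and UQCRH differed by -0.18 ± 0.05, and without the OA library of cow 2 by -0.23 ± 0.05 and -0.22 ± 0.05. The cytosolic ribosomal protein genes had a median of -0.166 here, with 75 of 77 lower, and -0.22 without that library. Genes no longer than the members' median length had a median of -0.042, with 1181 of 2026 lower, and -0.050 without that library. The part of these groups in the members' result was not tested. OA against CON, OA against PA and MIX against OA share the same 3 OA libraries and are not separate evidence.

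**Figure D5:**
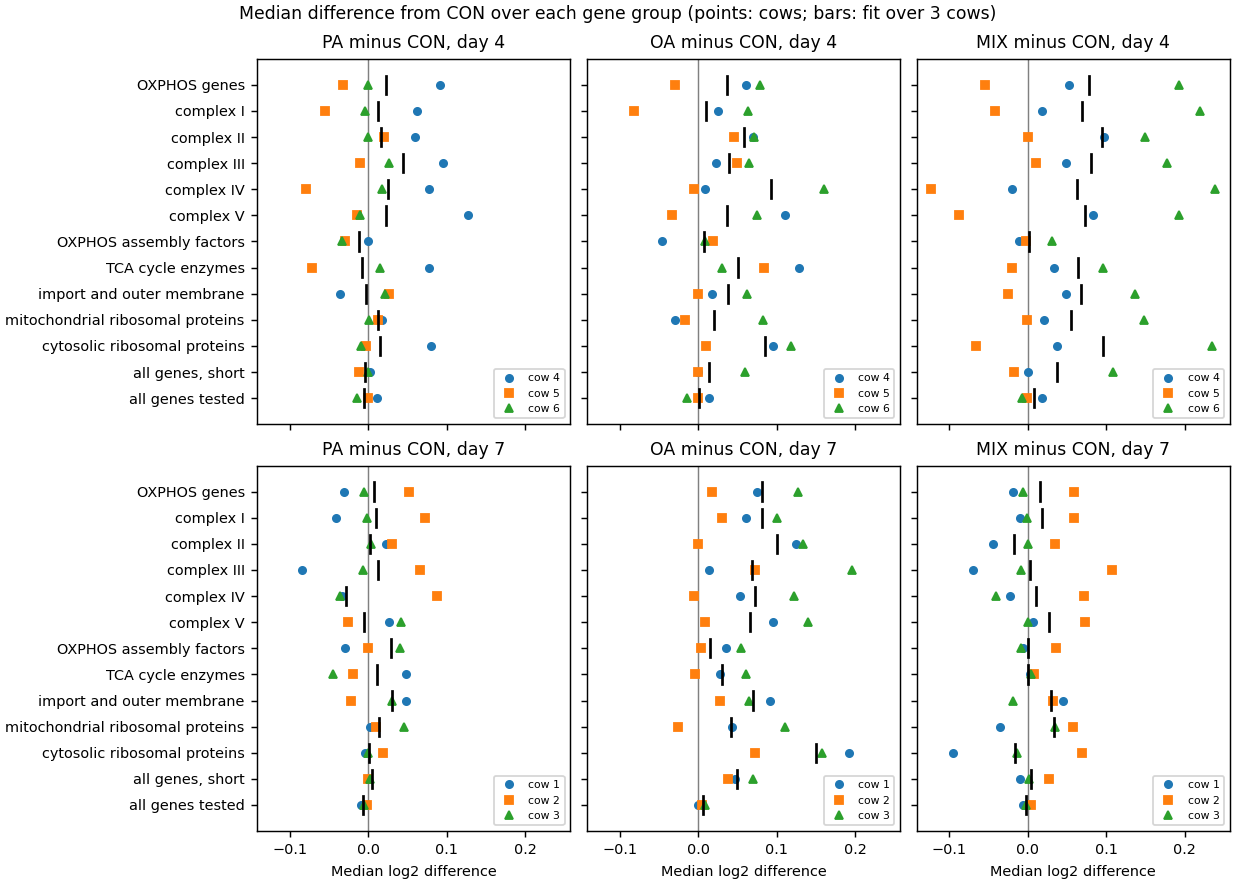
Median log2 difference from CON over groups of genes, for PA, OA and MIX at day 4 (top) and day 7 (bottom): points give the cows and black bars the fit over 3 cows. For OA at day 7 the 84-gene group has points at 0.075, 0.017 and 0.127, the cytosolic ribosomal proteins lie further right with a bar at 0.150, and all genes tested lie near 0.

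Whether a difference from CON changed between day 7 and day 4 was tested with limma in all 24 libraries, over 12132 genes and 80 members. No member passed (0% of all genes, with or without the block), and the smallest adjusted p with the block was 0.999 for PA, 0.835 for OA and 0.979 for MIX. At an unadjusted p of 0.05 with the block the counts of members were 2 for PA, 5 for OA and 1 for MIX, against 4.64%, 5.49% and 4.44% of all genes. The members' median difference between the days was -0.037 for PA, 0.028 for OA and -0.052 for MIX. The larger count of members higher with OA at day 7 is thus not shown to differ from day 4.

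Related mitochondrial genes did not pass the test either. In all 12 comparisons 0 of 50 assembly factors of these complexes, 0 of 13 citric acid cycle enzymes, 0 of 20 import and outer membrane genes and 0 of the mitochondrial ribosomal protein genes passed the adjusted threshold in either direction, with or without the block. In OA against CON at day 7 the medians were 0.016 for assembly factors (30 of 50 higher), 0.030 for citric acid cycle enzymes (9 of 13), 0.070 for import genes (18 of 20) and 0.042 for mitochondrial ribosomal proteins (53 of 78). The other lists had 8 of 19 regulators of mitochondrial biogenesis higher (median -0.021), 15 of 18 genes of the hypoxia response (0.11) and 4 of 5 uncoupling proteins and ADP/ATP carriers (0.090). The hypoxia list turned its sign against CON with the OA library of cow 2: without it 7 of 18 genes were higher with a median of -0.026, and the list's median within cows 1, 2 and 3 was 0.265, 0.245 and -0.143. In OA against PA its median was 0.235 (16 of 18 higher), and 0.151 (14 of 18) without that library. In MIX against OA it was -0.258 (17 of 18 lower), and -0.163 (16 of 18) without it. In OA against CON, leaving out that library gave medians of 0.050 for assembly factors, 0.043 for citric acid cycle enzymes, 0.069 for import genes, 0.072 for mitochondrial ribosomal proteins, -0.016 for the regulators and 0.201 for the carriers. Of the marker lists, 3 of 6 tested adipocyte genes (median -0.051), 7 of 12 fibroblast genes (0.0090), 6 of 12 smooth muscle genes (-0.0048), 2 of 3 leukocyte genes (0.224) and 2 of 3 epithelial genes (0.052) were higher in OA, and their part in the members' result was not tested. Without the OA library of cow 2 the medians were 0.052 for adipocyte, 0.082 for fibroblast, 0.019 for smooth muscle, 0.086 for leukocyte and 0.116 for epithelial genes. UCP1, the uncoupling protein of brown and beige adipocytes, was at most 0.145 FPKM in any library.

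Regulators of mitochondrial gene expression were present at low to moderate levels. TFAM, which binds mitochondrial DNA, averaged 12.4 ± 4.84 FPKM at day 4 and 7.74 ± 1.38 FPKM at day 7 (SD over 12 libraries). At day 7 it was higher than CON in 3 of 3 cows with each fatty acid treatment, by 0.32 ± 0.07 in PA, 0.23 ± 0.07 in OA and 0.24 ± 0.07 in MIX, comparisons that share the CON libraries. None passed (adjusted p = 0.998, 0.434 and 1.00 with the block), and the differences at day 4 were 0.06 ± 0.13, -0.04 ± 0.13 and 0.04 ± 0.13. PPARGC1A, the coactivator PGC-1 alpha, lay at 0.276 to 2.11 FPKM at day 4 and 0.209 to 2.85 FPKM at day 7. At day 4 it differed from CON by 0.52 ± 0.20 in PA, 0.45 ± 0.20 in OA and 0.27 ± 0.21 in MIX, and at day 7 by -0.07 ± 0.12, -0.05 ± 0.12 and 0.02 ± 0.12. ESRRA, NRF1, GABPA, PPARA and PPARGC1B also passed in no comparison.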

How the data were processed

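RNA-seq libraries of cultured bovine pre-adipocytes (24 libraries, 6 cows, 8 groups of 3) were grouped by the labels' treatment, day and cow. The deposited day 4 table gives gene counts, FPKM, and the authors' log2 fold changes, p-values and adjusted p-values for 6 comparisons (the tool is not given in the sources used here). The deposited day 7 table gives FPKM, with gene lengths per the file headers. FastQC 0.11, StringTie 1.3.3b and featureCounts 1.5.0-p3 are named in the submitters' processing notes. Neither their roles nor an aligner, genome build or strandedness is given in the sources used here, so overlapping and antisense genes may share reads.

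Day 4 counts were tested with edgeR 4.0.16 (quasi-likelihood, TMM, filterByExpr, 13580 genes). Day 7 values were tested as log2(FPKM + 1) with limma 3.58.1 over 12615 genes with at least 1 FPKM in at least 3 libraries, so fold changes of low genes are understated. For day 7, 100.0% of values gave whole reads within 0.01 once scaled, and edgeR on these reads was an added alternative that called 0 members. All 4 groups of a day entered each fit. Tests were two-sided, and p-values were adjusted by Benjamini-Hochberg over all genes tested with a threshold of 0.05. The tables were normalised separately, and only the interaction between days (limma, 24 libraries) used both. Tools ran in R 4.3.3 and Python 3.11.15 (pandas 2.3.3, matplotlib 3.10.9). The edgeR and limma fits were tried on simulated data with known changes in OA against CON. The interaction between days and DESeq2 were not tried in this way.

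The main fit had no block. The same cow gave a library to each group of a day, so cow numbers pair the samples. Deviations of same-cow libraries from their group means correlated by 0.757 to 0.912 at day 4 and 0.772 to 0.864 at day 7. Between cows they correlated by at most 0.0369 and -0.310. Deviations within a group cancel out, which by itself pushes the values between cows down. The fit with cow as a block is given beside the results.

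Members were matched by name and joined between tables by gene ID. Members and gene lists (212 genes in 13 lists and 2 lists by name pattern) were chosen with earlier results of these data known. Named members are a fixed set of isoforms and core subunits, for each comparison the 3 with the smallest block p in each direction, and the 10 highest per day. NDUFB8, NDUFS4, NDUFS6 and the NDUFA12 and COX6B2 levels were chosen after their values were seen. Named non-members are list genes past the threshold, regulators and marker genes. Alternatives were DESeq2 1.42.0, limma on day 4 FPKM, another size factor, no filter or a stricter one (50 counts, 5 FPKM), a pseudocount of 0.1, only the groups compared, the block, and each cow or library left out. Floors cover counting error only, while the intervals come from the fits and include the residual spread between libraries.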

Additional observations from a re-analysis of the deposited data

How the results depend on the processing

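The number of members past the adjusted threshold was above 0 in 2 of 381 values over the comparisons and their alternatives. It was 1 for OA against PA at day 4 without a filter on low counts and with the replicate block, and it ranged from 0 to 1 when single cows or libraries were left out there. The gene was the chromosome 5 copy of NDUFA12, at -0.69 ± 0.18 (edgeR adjusted p = 0.0282) without the filter and -1.13 ± 0.25 (adjusted p = 0.00738) without cow 6 and with the block. With its copies summed, an alternative added after the data were seen, the difference was -0.01 ± 0.12. With the replicate block the members' median at day 4 was 0.032 for PA, 0.037 for OA and 0.062 for MIX against CON, and at day 7 it equalled the value without the block. Among 354 values of the members' medians, 2 moved by more than the spread between cows, both with a library left out. The ranges then were -0.046 to 0.069 for MIX against OA at day 4 and -0.020 to 0.028 for MIX against PA at day 7. For OA against CON at day 7 the range was 0.050 to 0.118. The spread between cows exceeded the size of every other median, so few values could count as moved. At day 4 the median changed sign in 3 (PA), 0 (OA) and 2 (MIX) fits against CON. It did so in 5 for OA against PA, including the fit without a filter and with the block (-0.0018). At day 7 the counts against CON were 5, 0 and 3. Of 2117 values for single named members, 18 had the other sign, all with a cow or library left out: NDUFA3 (-0.066 to 0.42) and ATP5MF (-0.31 to 0.023) in PA against CON, NDUFA1 (-0.47 to 0.13) in MIX against CON, CYCS (-0.0015 to 0.35) in OA against PA and the chromosome 3 copy of NDUFA12 (-0.05 to 0.81) in MIX against PA at day 4. At day 7 they were the chromosome 3 copy of NDUFA12 (-0.54 to 0.0046) in OA against PA, and NDUFAB1 (-0.071 to 0.21) and NDUFB4 (-0.0013 to 0.11) in MIX against OA. The causes were not tested. Values of gene lists and further members without OA of cow 2, and of the members without CON of cow 1, were also chosen after the data were seen. With 3 cows per day small differences may have been missed, and the smallest difference that the tests could detect was not calculated.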

Other observations

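Several subunit genes carry other names in the tables and were outside the 84. COX6C, listed as MGC148714, averaged 57.7 FPKM at day 4 and 38.8 FPKM at day 7. An unnamed COX7C gene on chromosome 7 averaged 43.2 FPKM at day 4 and 49.0 FPKM at day 7, which places both genes among the levels of the named complex IV subunits. The unnamed COX7C copy on chromosome 11 averaged 0.719 and 0.634 FPKM and the one on chromosome 19 0.0866 and 0.0645 FPKM at days 4 and 7. COX7B2, listed as MGC127695, averaged 0.305 and 0.163 FPKM. COX8C was listed at 0 at day 4 and averaged 0.00762 FPKM at day 7, and an unnamed copy of NDUFA4 was listed at 0 in all 24 libraries. COX5B and COX6B1 were not analysed here under those names.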
